A study of Mus musculus with 8 samples.

Results

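The transcription factors that hold a liver cell in its identity were examined as 9 genes: Hnf4a and Nr5a2, which encode nuclear receptors, Cebpa and Cebpb of the C/EBP family, Foxa1, Foxa2 and Foxa3 of the FOXA family, and the homeobox genes Onecut1 and Prox1. They were taken by symbol from a table of 56691 genes, and all 9 were found and passed the filter on low counts that left 14533 genes to test. The livers came from wild-type C57BL/6J mice given either plive-Con, the control plasmid (4 libraries), or plive-Tet1 (4 libraries) by hydrodynamic tail vein injection, a rapid large-volume injection that carries plasmid into hepatocytes. All mice, from an age of 6 weeks, were fed the HFD-CDAA diet (rich in fat, without choline, with free amino acids as protein source) over 4 weeks, a model of metabolic dysfunction-associated steatohepatitis, and were killed after a short fast. No group without the diet is part of the comparison. Whether each library is a separate animal is not stated, so the spread behind each p-value may be technical, and liver stands for library in what follows.

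Hepatocytes keep their character through a small network of transcription factors that bind the same enhancers and each other's genes. FOXA proteins act as pioneer factors, which can bind their sites in closed chromatin, and HNF4A and the C/EBP proteins then drive the genes of lipoprotein, glucose and drug metabolism. TET enzymes oxidise 5-methylcytosine, a mark placed mainly on CpG dinucleotides, and liver enhancers bound by FOXA and HNF4A are among the regions that lose this mark as the liver matures.

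The libraries held between 15885113 and 19850800 counts. For Tet1 itself the plive-Con livers had counts of 1, 9, 6 and 5, and those labelled plive-Tet1 had 9, 8, 12 and 5. The ratio of its pooled counts, scaled to the library totals, was 1.495, with an exact 95% interval of counting error from 0.843 to 2.71. With log2(FPKM + 0.5), the exact permutation test (two-sided, 70 ways to split 8 livers) gave p = 0.371. At this depth no rise of Tet1 was detectable under the plive-Tet1 label, and group names refer to labels throughout. The library plive-Con 4 lay apart from the other 7 on the first principal component (26.97% of the variance), with a score of 52.0 against -18.97 to 3.72. The value without it is given for some results, but not for all that it moved.

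The liver of origin was visible in hepatocyte markers, whose 12 genes summed to between 45020 and 55490 FPKM (fragments scaled to exon length and library depth) in a liver. Markers of other cells that can carry these factors were much lower in sum. The 14 cholangiocyte markers summed to between 63.6 and 173.9 FPKM with plive-Con and between 108 and 252.5 FPKM with plive-Tet1, with Onecut3 at 0 in every liver. Most of this sum was the single gene Spp1, with means of 85.25 FPKM (plive-Con) and 119.7 FPKM (plive-Tet1). The next highest, Sprr1a, had means of 7.47 and 13.84 FPKM. The 6 lymphatic endothelial markers, of a cell type that uses Prox1, summed to between 7.10 and 19.0 FPKM with plive-Con and between 9.24 and 14.3 FPKM with plive-Tet1. Among them Reln is also listed as a stellate cell marker, so this sum need not come from lymphatic cells alone. Of the 8 pancreatic acinar markers, of a cell type that uses Nr5a2, the 5 genes Cpa1, Prss2, Pnlip, Amy2b and Ptf1a had 0 counts in all 8 livers. Ctrb1 had at most 2 counts in a liver and Cela2a between 2 and 20, but Cela1 had between 188 and 354. The acinar list summed to between 5.01 and 8.74 FPKM with plive-Con and between 5.32 and 7.14 FPKM with plive-Tet1. Nearly all of it was Cela1, with means of 5.91 and 6.00 FPKM. These are bulk samples, in which fewer cells of a type and less RNA per cell cannot be told apart.

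Because the plasmid names an enzyme of CpG demethylation, the start regions of the 9 genes are shown for their CpG content. RefSeq's table for GRCm38.p6 held 14 windows for them, each reaching from 250 bases before to 50 bases after a transcription start. That build is not the GRCm39 of the deposited table, so genes were matched by symbol. The sequences below are those of the 2 alternative Hnf4a promoters, of the CpG-rich Cebpb, and of Onecut1 and Foxa2, whose levels varied together between livers, and Foxa3, which ran opposite to them. They run 5′ to 3′ on the gene's strand, and capitals mark CpG dinucleotides.
Hnf4a upstream promoter (chr2:163506607-163506906, plus strand): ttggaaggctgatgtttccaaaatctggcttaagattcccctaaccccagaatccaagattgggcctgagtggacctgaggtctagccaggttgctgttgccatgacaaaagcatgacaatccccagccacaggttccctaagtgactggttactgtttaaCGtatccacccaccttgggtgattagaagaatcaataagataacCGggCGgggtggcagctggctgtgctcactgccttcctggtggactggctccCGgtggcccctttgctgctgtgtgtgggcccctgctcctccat
Hnf4a downstream promoter (chr2:163546905-163547204, plus strand): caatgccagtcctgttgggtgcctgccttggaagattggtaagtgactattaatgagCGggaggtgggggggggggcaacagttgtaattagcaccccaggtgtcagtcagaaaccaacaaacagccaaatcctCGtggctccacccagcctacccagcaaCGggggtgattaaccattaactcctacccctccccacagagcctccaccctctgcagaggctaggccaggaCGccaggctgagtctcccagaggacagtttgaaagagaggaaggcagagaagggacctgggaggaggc
Cebpb (chr2:167688665-167688964, plus strand): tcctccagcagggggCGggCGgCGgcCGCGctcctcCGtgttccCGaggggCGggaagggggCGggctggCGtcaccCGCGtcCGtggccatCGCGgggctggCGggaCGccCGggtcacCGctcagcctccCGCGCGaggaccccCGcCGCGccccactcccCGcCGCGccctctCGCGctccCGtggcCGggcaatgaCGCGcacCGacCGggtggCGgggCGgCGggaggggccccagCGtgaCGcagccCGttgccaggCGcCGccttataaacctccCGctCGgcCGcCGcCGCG
Foxa2, farthest upstream of 3 starts (chr2:148046920-148047219, minus strand): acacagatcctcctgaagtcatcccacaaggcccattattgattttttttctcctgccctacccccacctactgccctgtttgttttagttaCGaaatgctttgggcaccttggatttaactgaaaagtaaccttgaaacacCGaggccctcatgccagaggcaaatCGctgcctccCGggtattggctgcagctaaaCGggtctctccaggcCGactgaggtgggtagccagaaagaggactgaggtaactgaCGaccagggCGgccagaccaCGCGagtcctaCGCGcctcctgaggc
Foxa3 (chr7:19023490-19023789, minus strand): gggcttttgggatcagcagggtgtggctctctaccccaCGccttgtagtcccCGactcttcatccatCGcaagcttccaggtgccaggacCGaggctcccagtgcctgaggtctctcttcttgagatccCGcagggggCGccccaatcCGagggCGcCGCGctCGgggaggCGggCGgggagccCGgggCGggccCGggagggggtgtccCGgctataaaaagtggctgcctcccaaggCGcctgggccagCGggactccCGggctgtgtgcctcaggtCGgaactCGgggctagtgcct
Onecut1 (chr9:74861671-74861970, plus strand): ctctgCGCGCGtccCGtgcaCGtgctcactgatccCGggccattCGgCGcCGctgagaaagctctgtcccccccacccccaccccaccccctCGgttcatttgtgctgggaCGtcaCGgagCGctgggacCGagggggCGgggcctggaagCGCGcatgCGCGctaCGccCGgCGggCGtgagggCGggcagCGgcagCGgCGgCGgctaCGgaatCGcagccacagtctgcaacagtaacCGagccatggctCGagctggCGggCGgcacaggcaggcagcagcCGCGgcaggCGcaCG

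The 9 genes differed widely in CpG content. The Cebpb window held 50 CpG, more than 99.1% of the 32851 windows of the table, where the median is 7. The Onecut1 window held 38, and those of Cebpa, Foxa1 and Foxa3 held 29, 26 and 22. Both Hnf4a windows held only 4, with an observed-to-expected CpG ratio of 0.183 upstream and 0.163 downstream, against 1.03 for Cebpb and 0.951 for Onecut1. The windows of Nr5a2 held 2 and 7, those of Prox1 25 and 14, and those of Foxa2 12, 23 and 13. Of all windows, 31.4% held fewer CpG than those of Hnf4a, and 14.1% fewer than the Nr5a2 window with 2. Windows near the top of the table and windows below its median thus stood side by side among genes of one network. The libraries hold RNA only, so the methylation of these windows was not measured.

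Letters bound by the network's own factors were searched on both strands. The ONECUT letters ATCNAT occurred in 3 of the 14 windows: as ATCAAT at -59 to -54 of the upstream Hnf4a promoter, as ATTGAT (on the minus strand) at -213 to -208 of the Foxa2 window shown, and as ATCCAT at -189 to -184 of Foxa3, counted from the transcription start. They occurred in 21.4% of all windows, so this share is close to the background. The FOXA letters TGTTTAC were found once, as GTAAACA in the Foxa1 window, and in 3.65% of all windows. The C/EBP letters TTGCNNAA were found in 1 Nr5a2 window and in 10.8% of all windows. The HNF4 letters CAAAGTCC and the NR5A2 letters CAAGGTCA (1.42% and 1.56% of all windows) were in none of the 14. No matches overlapped one another.

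In the order of their levels per exon length, Cebpa led with a mean of 152 ± 22.97 FPKM (SD over the 8 livers), which placed it 315th of the 14533 genes tested. Hnf4a followed with 104 ± 16.9 FPKM and Cebpb with 83.6 ± 25.96 FPKM. Foxa3 had 32.5 ± 4.38 FPKM. The ranges of Cebpa, Hnf4a and Cebpb overlapped, with Cebpa above Hnf4a in 7 of 8 livers and Hnf4a above Cebpb in 6, while Cebpb lay above Foxa3, and Foxa3 above Foxa2, without overlap. Foxa2 (8.30 ± 3.04 FPKM), Nr5a2 (8.29 ± 1.45 FPKM) and Prox1 (7.69 ± 1.19 FPKM) could not be ordered, since each was above the next in only 4 of 8 livers. Foxa1 had 4.72 ± 0.975 FPKM. Onecut1 was last with 0.630 ± 0.454 FPKM and ranked 12041st, its highest liver (1.45 FPKM) below the lowest Foxa1 liver (3.88 FPKM). Other genes share 20.7% of the Cebpb and 52.8% of the Onecut1 exonic bases in the GENCODE M21 annotation. The counting mode is not stated, and the effect of this sharing on the order of levels was not tested.

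The 2 labelled groups were compared to ask whether these factors differ with the plive-Tet1 label. None of the 9 did beyond the spread between livers. The quasi-likelihood test of edgeR, adjusted by Benjamini-Hochberg over all genes, called 0 of 9 higher and 0 lower, where 0% of all tested genes were called in either direction. At an unadjusted p under 0.05 it reached 0 of 9, against 4.07% of all genes (591; 1.91% higher and 2.16% lower), and DESeq2 and limma voom also reached 0 of 9 at that level. The groups overlapped for each of the 9 genes, while for 2.28% of all genes they did not. Counted by sign alone, 1 gene had a higher value with plive-Tet1 and 8 a lower one, with a median log2 fold change (positive where plive-Tet1 is higher) of -0.08. Over all genes tested, 7552 had a higher and 6981 a lower value, with a median of 0.01. The edgeR adjusted p was 1.00 for each of the 9.

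**Figure D1:**
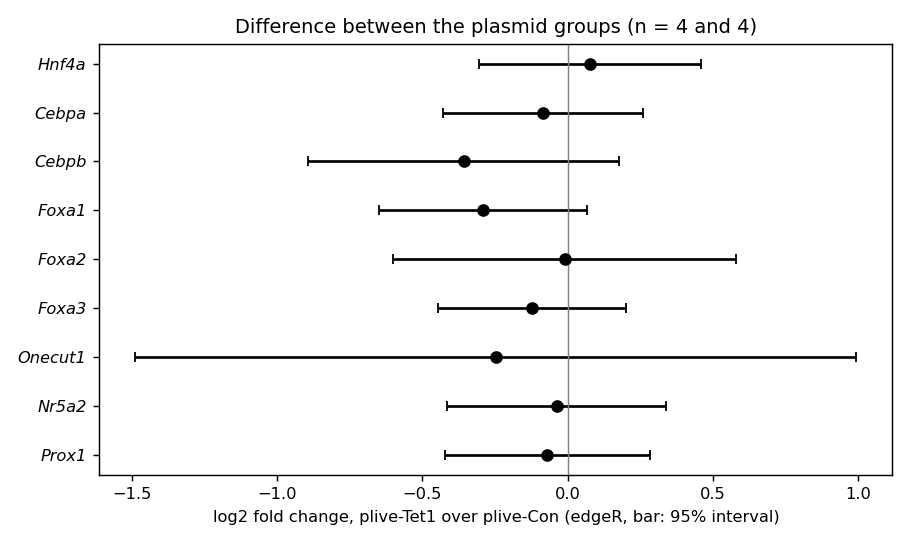
Log2 fold change of each factor, plive-Tet1 over plive-Con, from edgeR (x axis; points, with 95% intervals as bars), for 4 and 4 livers. Every interval includes 0, and Onecut1 has the widest, from -1.49 to 0.99.

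Hnf4a, which sustains lipoprotein, clotting and drug metabolism genes, lies on GRCm39 chromosome 2 from 163348728 to 163414830 on the plus strand (ENSMUSG00000017950). It measured 405, 383, 585 and 594 CPM (counts scaled to library size after TMM) in plive-Con livers 1 to 4. In plive-Tet1 livers 1 to 4 it measured 409, 534, 543 and 589 CPM. plive-Con 1, plive-Con 2 and plive-Tet1 1 were low and the other 5 livers high, so low and high livers occurred in both groups. Its log2 fold change was 0.08 ± 0.18 (SE), with a 95% interval from 0.809-fold to 1.37-fold. The sign changed without plive-Con 1 (-0.005) or plive-Con 2 (-0.03), and the value was 0.18 without plive-Con 4.

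The 3 livers with low Hnf4a had the highest mean standardised value of macrophage and neutrophil markers, though not the highest summed level. That mean over 12 genes was 0.460, 0.453 and 0.824 in plive-Con 1, plive-Con 2 and plive-Tet1 1, and between -0.627 and 0.116 in the other 5. The summed level of the list was 851, 821, 559.9 and 505 FPKM in plive-Con livers 1 to 4, and 1168, 927, 773 and 778 FPKM in plive-Tet1 livers 1 to 4. By this sum plive-Tet1 2, a liver with high Hnf4a, stood above plive-Con 1 and plive-Con 2. Most of the sum was the single gene Lyz2, with means of 475.8 FPKM (plive-Con) and 696.6 FPKM (plive-Tet1). Across the 8 livers, Pearson's r between log2 Hnf4a and the list's mean was -0.922, given as a description, since both come from the same libraries. The same r was -0.794 for stellate cell, -0.7595 for cholangiocyte and -0.733 for lymphatic markers, and 0.7355 for hepatocyte markers. Hnf4a was not alone in this. With the macrophage and neutrophil list, r was -0.866 for Cebpb and -0.794 for Foxa3. For the other factors it lay between -0.251 (Nr5a2) and 0.528 (Onecut1). The part of these cells in the values of Hnf4a and the other factors was not tested.

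Nr5a2, the receptor LRH-1 that drives bile acid synthesis, lies on chromosome 1 from 136770309 to 136888186 on the minus strand (ENSMUSG00000026398). Its values were 40.4, 50.9, 58.6 and 48.98 CPM in the plive-Con livers and 55.1, 35.7, 41.7 and 61.4 CPM in the plive-Tet1 livers. Both the lowest (plive-Tet1 2) and the highest liver (plive-Tet1 4) were labelled plive-Tet1. For the groups it gave a log2 fold change of -0.04 ± 0.17, with an interval from 0.7496-fold to 1.27-fold. Its sign changed without plive-Con 3 (0.02), plive-Tet1 2 (0.07) or plive-Tet1 3 (0.003), and with library totals in place of TMM (0.007), so no direction can be given.

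Cebpa, which drives metabolic genes of resting hepatocytes, lies on chromosome 7 from 34818718 to 34821353 on the plus strand (ENSMUSG00000034957). It measured 436, 408, 492 and 317 CPM with plive-Con. With plive-Tet1 it measured 389, 374, 469.7 and 327 CPM. The lowest liver of each group was number 4, and the groups covered much the same range. The log2 fold change was -0.08 ± 0.16, with an interval from 0.743-fold to 1.198-fold. It was -0.19 without plive-Con 4 and -0.21 without plive-Tet1 3, and -0.01 without plive-Con 3 or plive-Tet1 4.

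Cebpb, which is induced in inflammation, fasting and regeneration, lies on chromosome 2 from 167530835 to 167532338 on the plus strand (ENSMUSG00000056501). Its values were 90.8, 96.5, 182.5 and 200.5 CPM under plive-Con and 88.6, 106, 143 and 107 CPM under plive-Tet1. The top 2 livers were plive-Con 3 and 4, and the other plive-Con livers stood among the lowest. The log2 fold change was -0.36 ± 0.25, with an interval from 0.539-fold to 1.13-fold, and an exact permutation p of 0.400. It was -0.15 without plive-Con 4 and -0.53 without plive-Tet1 3, the range over the livers left out. Peds1, on the opposite strand, overlaps the start of Cebpb and collected between 394 and 525 counts. In the GENCODE M21 annotation 20.7% of the Cebpb exonic bases are shared with it, and without a stated strand setting reads from there cannot be assigned.

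Within each liver the balance of the C/EBP genes, as the FPKM ratio of Cebpa to Cebpb, was 2.74, 2.41, 1.54 and 0.903 with plive-Con. It was 2.50, 2.01, 1.87 and 1.74 with plive-Tet1. plive-Con 4 was the only liver in which Cebpb stood above Cebpa. The mean ratios, 1.897 ± 0.834 and 2.03 ± 0.333 (SD, n = 4 each), differed by less than the spread between livers. Without plive-Con 4 the plive-Con mean was 2.23 ± 0.620 (SD, n = 3), so the order of the means turned. The plive-Tet1 values lay inside the range of the plive-Con values.

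**Figure D2:**
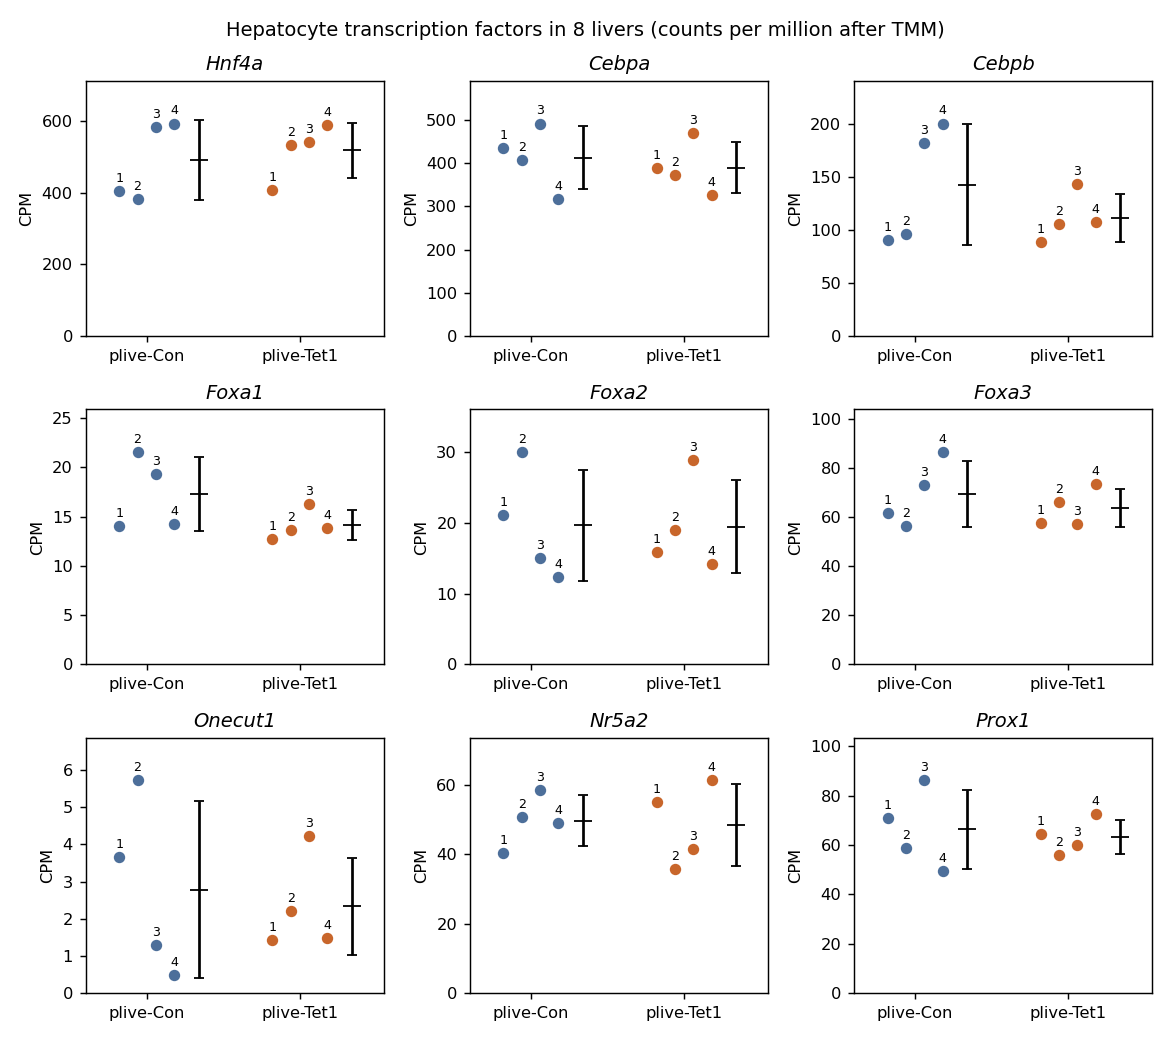
Level of each factor in CPM (y axis, from 0, with its own scale per gene) in the 4 plive-Con and 4 plive-Tet1 livers (points, numbered by replicate), with group means and SD as bars. The groups overlap in every panel, and Onecut1 has the highest coefficient of variation in each group (85.5% with plive-Con and 56.4% with plive-Tet1).

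The FOXA genes differed from one another more than the groups did. Foxa1, which with Foxa2 opens liver chromatin in the embryo, lies on chromosome 12 from 57587414 to 57593702 on the minus strand (ENSMUSG00000035451). It measured 14.1, 21.6, 19.3 and 14.3 CPM under plive-Con and 12.7, 13.6, 16.3 and 13.9 CPM under plive-Tet1. plive-Tet1 3 was the single plive-Tet1 liver above any plive-Con liver. The log2 fold change was -0.29 ± 0.17, with an interval from 0.637-fold to 1.05-fold, an unadjusted edgeR p of 0.102 and an exact permutation p of 0.171. Of its spread in log2 CPM (the sum of squares over the 8 livers), 29.5% lay between the groups, the highest share of the 9 genes. The median share was 3.34% for the 9 genes and 7.29% for all genes tested. Without plive-Con 2 the log2 fold change of Foxa1 was -0.17. It was -0.38 without plive-Con 1, -0.37 without plive-Con 4 and -0.39 without plive-Tet1 3.

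Foxa2, which in the adult liver also responds to fasting, lies on chromosome 2 from 147884797 to 147888889 on the minus strand (ENSMUSG00000037025). Its values were 21.2, 30.0, 15.1 and 12.3 CPM under plive-Con and 15.8, 18.99, 28.9 and 14.2 CPM under plive-Tet1. Each group held a liver near the top and a liver near the bottom of the range, which spanned 2.44-fold (2.11-fold without plive-Con 4). The log2 fold change was -0.01 ± 0.27, with an interval from 0.6595-fold to 1.496-fold, and its sign differed between settings (0.27 without plive-Con 2, -0.29 without plive-Tet1 3), so it has no direction. Only 0.0375% of its spread lay between the groups.

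Foxa3, the most abundant FOXA transcript here, lies on chromosome 7 from 18747209 to 18757463 on the minus strand (ENSMUSG00000040891). It measured 61.7, 56.3, 73.0 and 86.6 CPM under plive-Con and 57.7, 66.2, 57.4 and 73.6 CPM under plive-Tet1. plive-Con 4 was the highest of all. Its log2 fold change was -0.12 ± 0.15 and 0.001 without plive-Con 4, with an interval over all livers from 0.734-fold to 1.15-fold.

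By summed FPKM the FOXA family was steady, at 46.7 ± 3.27 FPKM with plive-Con and 44.4 ± 3.31 FPKM with plive-Tet1 (SD, n = 4 each). Its make-up was not. Foxa3 supplied between 59.1% (plive-Con 2) and 81.8% (plive-Con 4) of the sum, and Foxa2 between 9.99% and 27.1% in the same livers. Foxa1 supplied between 8.25% and 13.9%. The mean Foxa3 share was 71.3% ± 9.54 with plive-Con and 71.5% ± 6.64 with plive-Tet1. Without plive-Con 4 the plive-Con mean was 67.8% ± 7.98 (SD, n = 3) and its highest share 74.7%, and for Foxa2 the mean share was 20.3% ± 6.92, above the 18.8% ± 5.86 with plive-Tet1 where it had been below at 17.7% ± 7.65. The ratio of Foxa3 to Foxa2 ran from 2.18 to 8.19 with plive-Con and from 2.31 to 6.02 with plive-Tet1, and its highest plive-Con value was 5.64 without plive-Con 4.

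**Figure D3:**
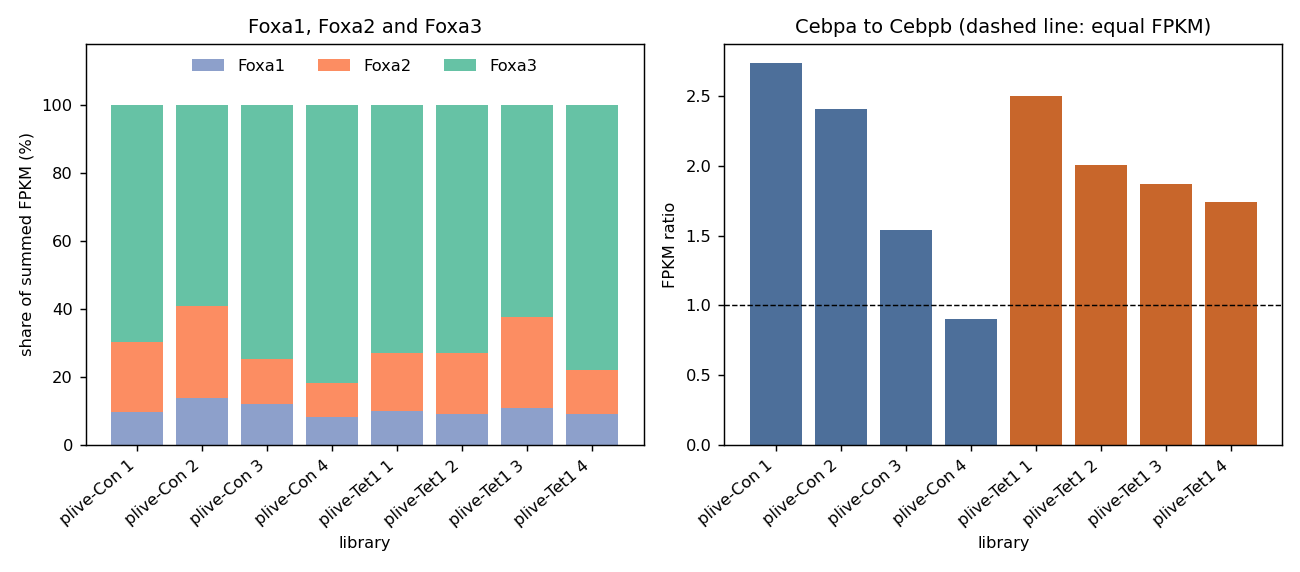
Left, share of Foxa1, Foxa2 and Foxa3 in their summed FPKM (y axis, percent) in each liver. Right, FPKM ratio of Cebpa to Cebpb in each liver, with a dashed line at 1 and bars coloured by group: the ratio is under 1 in plive-Con 4, at 0.903, and between 1.54 and 2.74 in the other livers.

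Onecut1, a homeobox factor (HNF6) of liver and bile duct development that cooperates with FOXA2, varied most. It lies on chromosome 9 from 74769203 to 74799063 on the plus strand (ENSMUSG00000043013). Its counts were 63, 95, 22 and 8 with plive-Con, or 3.65, 5.72, 1.28 and 0.478 CPM. In the plive-Tet1 livers it collected 24, 43, 84 and 29 counts, or 1.42, 2.21, 4.23 and 1.47 CPM. plive-Con 2, plive-Tet1 3 and plive-Con 1 were high and plive-Con 4 was lowest.

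The exact 95% counting interval was 0.206 to 0.942 CPM in plive-Con 4 and 4.63 to 6.996 CPM in plive-Con 2, and these intervals, which cover counting error only, do not overlap. The highest liver stood 11.98-fold above the lowest, and 4.47-fold without plive-Con 4. Its biological coefficient of variation in edgeR was 0.552, above that of 99.7% of the genes tested. Foxa2 (0.273) and Cebpb (0.252) were at the 84th and 79th percentiles, and the other 6 genes lay between 0.162 and 0.188, around the median of all genes, 0.183.

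For the comparison of the groups, the log2 fold change of Onecut1 was -0.25 ± 0.57, with an interval from 0.356-fold to 1.99-fold. It was 0.37 without plive-Con 2, -0.60 without plive-Con 4 and -0.72 without plive-Tet1 3, and limma voom gave 0.15. No direction can be given for it. Gm20649, a gene on the same strand with 0 counts in every liver, overlaps it. In GENCODE M21 52.8% of the Onecut1 exonic bases are shared with that gene, and the effect of this on its counts was not tested.

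Prox1, a corepressor of nuclear receptors in hepatocytes and the identity factor of lymphatic endothelium, lies on chromosome 1 from 189850232 to 189902911 on the minus strand (ENSMUSG00000010175). It measured 70.97, 58.7, 86.1 and 49.4 CPM under plive-Con and 64.4, 56.1, 59.8 and 72.4 CPM under plive-Tet1. The plive-Tet1 livers lay inside the range of the plive-Con livers. Between the groups the log2 fold change was -0.07 ± 0.16, with an interval from 0.7455-fold to 1.22-fold, and was 0.06 without plive-Con 3 and -0.19 without plive-Con 4. The antisense gene Prox1os overlaps it and collected between 74 and 149 counts against 827 to 1481 for Prox1.

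The factors did not vary as a block from liver to liver. Over the 36 pairs, Pearson's r of log2 CPM across the 8 livers ran from -0.850 to 0.9496, with 20 pairs above 0 and 16 below. These values are descriptions with no p, over the same 8 libraries and their scaling, one of which is plive-Con 4. Without plive-Con 4, 3 pairs changed sign, all with Prox1. The r of Prox1 moved from -0.065 to 0.669 with Foxa3, from -0.077 to 0.494 with Cebpb, and from 0.089 to -0.577 with Onecut1. Foxa2 and Onecut1 had the highest r of 0.9496 (Spearman's rho 0.929), which was 0.950 within the groups and 0.964 without plive-Con 4. Among all 14532 other genes, Foxa2 stood 12th in likeness to Onecut1, and Onecut1 stood 10th in likeness to Foxa2.

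Foxa3 ran opposite to both. Its r with Onecut1 was -0.850 and with Foxa2 -0.818, and without plive-Con 4 these were -0.697 and -0.756. Hnf4a, Cebpb and Foxa3 had positive r with one another, 0.762 for Hnf4a with Cebpb and 0.759 for Hnf4a with Foxa3, which were 0.729 and 0.759 without plive-Con 4. Cebpb with Foxa3 had 0.700, which was 0.449 without it. Cebpa and Cebpb had an r of 0.02, which was 0.616 without plive-Con 4. The liver plive-Con 4 joined the lowest Onecut1, Foxa2, Cebpa and Prox1 with the highest Hnf4a, Cebpb and Foxa3, and plive-Con 2 joined the highest Onecut1, Foxa2 and Foxa1 with the lowest Hnf4a and Foxa3.

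**Figure D4:**
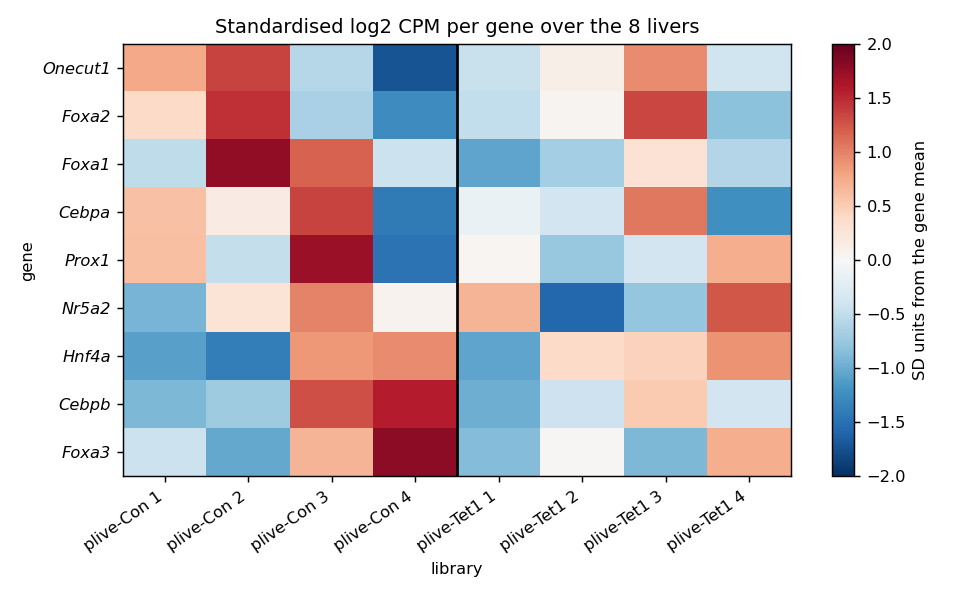
Log2 CPM of each factor (rows) in each liver (columns), in SD units from the gene's mean over the 8 livers (colour), with a line between the groups. Onecut1 and Foxa2 share their high and low livers, Foxa3 shows the reverse, and the pattern crosses the line between plive-Con and plive-Tet1.

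Genes elsewhere in the table with the most similar pattern were sought as the 2 highest Pearson r over the 8 livers. With 8 points and 14532 candidates high values are easily found, and nothing is read from them about shared control. For Onecut1 they were Pias3 (0.993) and Nod1 (0.985), and for Foxa2 Igfbp7 (0.981) and Usp35 (0.970). For Hnf4a they were Elk1 (0.964) and Angptl4 (0.958), an inhibitor of lipoprotein lipase. Angptl4 measured 107, 116, 208 and 285.5 CPM under plive-Con and 117, 192, 210.1 and 210.4 CPM under plive-Tet1, low in the same 3 livers as Hnf4a.

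For Cebpb the nearest were Ech1 (0.985) and Mlycd (0.985), enzymes of fatty acid oxidation and malonyl-CoA breakdown. Ech1 had 292, 301, 421.5 and 475 CPM under plive-Con and 274, 314, 352 and 317 CPM under plive-Tet1, with plive-Con 3 and plive-Con 4 on top, as for Cebpb. For Cebpa they were Sf3a2 (0.978) and Srebf1 (0.977), the latter a regulator of fat synthesis. Srebf1 had 80.1, 64.8, 92.4 and 48.4 CPM under plive-Con and 59.8, 57.1, 82.2 and 52.0 CPM under plive-Tet1, the same order of livers as Cebpa. For Foxa3 they were Cobll1 (0.989) and Sar1b (0.987), for Foxa1 2310001H17Rik (0.970) and Ccdc163 (0.945), for Nr5a2 1110032A03Rik (0.971) and Ankrd13c (0.969), and for Prox1 Cyp2j5 (0.983) and Prkd3 (0.963).

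Other transcription factors of hepatocytes, a list of 33 that excludes the 9, also gave 0 genes past the edgeR test, with 8 higher and 25 lower values and a median log2 fold change of -0.07. Those with the smallest p were Nr1i3, the xenobiotic receptor CAR, with -0.64 ± 0.19, Ahr, the dioxin receptor, with 0.55 ± 0.22, and Esrra, a regulator of mitochondrial genes, with -0.33 ± 0.15. Nr1i3 measured 67.7 ± 19.5 CPM with plive-Con and 43.5 ± 5.94 CPM in the plive-Tet1 livers (SD, n = 4 each). Of 13 C/EBP relatives and bZIP partners, 7 had a higher and 6 a lower value, with 0 past the test. The smallest p belonged to the clock-controlled PAR bZIP genes Dbp (-0.76 ± 0.25), Tef (-0.62 ± 0.21) and Hlf (-0.41 ± 0.22). Dbp measured 87.4 ± 17.6 and 51.7 ± 22.6 CPM. Of 17 listed FOXA coregulators and chromatin partners, 16 were tested, with 12 higher values, 4 lower values, 0 past the test and a median of 0.06. Ppargc1a, a coactivator of HNF4A, had -0.61 ± 0.45, and the corepressors Ncor1 and Tle1 had 0.13 ± 0.11 and -0.15 ± 0.16.

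Known target genes of the factors were read in the same way, with signs that depend on the scaling as above. Some genes stand in several of these lists. Of 32 targets of HNF4A, 5 had a higher and 27 a lower value, with a median of -0.11 and 0 past the test. Cyp2c29, a drug-metabolising cytochrome, had -1.33 ± 0.43, with 97.0 ± 76.97 CPM under plive-Con and 38.5 ± 14.8 CPM under plive-Tet1. The apolipoprotein genes Apoc3 and Apoa2 had -0.35 ± 0.13 and -0.35 ± 0.15. Hnf4a itself had 0.08 ± 0.18 in this comparison, with a sign that changed without plive-Con 1 or plive-Con 2. Of 23 targets of the C/EBP proteins, 6 had a higher and 17 a lower value, with a median of -0.07 and 0 past the test. Gys2, liver glycogen synthase, had -0.60 ± 0.18, Cyp2a5 -0.66 ± 0.22 and the alcohol dehydrogenase Adh1 -0.31 ± 0.14.

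Of 19 FOXA targets, 5 had a higher and 14 a lower value, with a median of -0.12 and 0 past the test. The fetal gene Afp had 0.43 ± 0.19 at only 5.30 and 7.14 CPM, and Slc10a1, the bile acid importer, -0.46 ± 0.21. Of 16 listed NR5A2 targets, 15 were tested, with 4 higher and 11 lower values, a median of -0.06 and 0 past the test. Abcg5 and Abcg8, whose proteins pair as a sterol exporter, had -0.64 ± 0.15 and -0.46 ± 0.18. The bile acid synthesis genes Cyp7a1 and Cyp8b1 had -0.04 ± 0.26 and -0.07 ± 0.37, named here after their values were seen.

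Markers of cell types likewise gave 0 genes past the test. Of 12 hepatocyte markers, 2 had a higher and 10 a lower value, with a median of -0.16, and Hpd, Cyp2e1 and Apoa1 had -0.34 ± 0.19, -0.24 ± 0.17 and -0.23 ± 0.17. Of 13 tested cholangiocyte markers, 8 had a higher and 5 a lower value, with a median of 0.17, Tspan8 at 0.52 ± 0.31 and Sprr1a at 0.86 ± 0.51. Of the 12 macrophage and neutrophil markers, 6 had a higher and 6 a lower value, with Trem2 at 0.51 ± 0.198, Lyz2 at 0.51 ± 0.22 and Clec4f at -0.36 ± 0.16. Of 5 tested lymphatic markers, 3 had a higher and 2 a lower value, with Flt4 at -0.31 ± 0.18, Ccl21a at -0.85 ± 0.57 and Reln at 0.14 ± 0.11. Of 8 stellate cell markers, Lrat had -0.26 ± 0.20, Reln (also in the lymphatic list) 0.14 ± 0.11 and Col1a1 0.18 ± 0.24, with a median over the list of -0.03. Cela1 and Cela2a were the acinar markers with enough counts to test, at -0.03 ± 0.20 and 0.16 ± 0.56.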

How the data were processed

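Per the labels' protocols, 8 paired-end libraries were made from mouse liver RNA. The submitters' processing notes list cutadapt 1.9.1, HISAT2 2.2.1, HTSeq 0.6.1 and GRCm39. For annotation release, strand setting and counting mode, nothing is given in the sources used here. The authors deposited a raw read count per gene and FPKM values, per the file headers. Groups and replicate numbers came from titles (the treatment fields of plive-Tet1 2, 3 and 4 name Tet2, Tet3 and Tet4). All pairs of libraries in a group differed beyond sampling noise, with a chi-square of 12.9 to 77.6 per degree of freedom.

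Counts were tested with edgeR 4.0.16 in R 4.3.3: filterByExpr, TMM, group as the only term, two-sided quasi-likelihood tests and Benjamini-Hochberg adjustment over all tested genes at 0.05. The code was also run on counts simulated with the dispersions of these libraries, which tries the code and not its fit to these data. Log2 CPM used a prior count of 2. DESeq2 1.42.0, limma 3.58.1, other filters, pseudocounts and scalings, a block for replicate number and leaving out every library in turn were alternatives. Named genes were the 9 factors, genes overlapping them, the 3 smallest p-values of each list and the 2 genes nearest in pattern; some are not reported here. The factors and lists were chosen with earlier results of these data known. Promoter sequences (RefSeq, GRCm38.p6) and exon overlaps (GENCODE M21) came from an older build than the deposited table. Motifs were searched on both strands.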

Additional observations from a re-analysis of the deposited data

How the results depend on the processing

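The 9 factors had 0 calls under all 19 alternatives, including each library left out (18 for Onecut1). For all genes, DESeq2 called 11 genes (5 higher, 6 lower) and edgeR with no filter on low counts called 132 of 28149 (33 higher, 99 lower), where edgeR with the filter called 0. Leaving out a library gave from 0 to 0 calls among all genes.

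Of 170 log2 fold changes of the factors under alternatives, 147 kept their direction and 23 reversed, with a median size of 0.03 among the reversed ones, and 0 changed their call. With library totals, Foxa2 had 0.0199 and Nr5a2 0.00673. limma voom gave Foxa2 0.0223 and Onecut1 0.153. limma on log2(FPKM + 0.5) gave Foxa2 0.0576 and Prox1 0.000553, with a pseudocount of 0.1 Foxa2 0.0629, Onecut1 0.0810 and Prox1 0.00173, and with 1 Foxa2 0.0520. With each library left out in turn, the log2 fold change ranged from -0.0258 to 0.180 for Hnf4a, from -0.29 to 0.27 for Foxa2, from -0.21 to 0.00137 for Foxa3, from -0.72 to 0.37 for Onecut1, from -0.17 to 0.0725 for Nr5a2 and from -0.19 to 0.0581 for Prox1. For Cebpa, Cebpb and Foxa1 the value stayed below 0 in every setting run, with each library left out from -0.21 to -0.01, from -0.53 to -0.15 and from -0.39 to -0.17. The family shares and ratios without plive-Con 4 were added after seeing the data. An unadjusted p under 0.05 was reached 5 times: by Cebpb with no filter (0.0167) and without plive-Con 1 (0.0462), and by Foxa1 without plive-Con 1 (0.0493), plive-Con 4 (0.0461) or plive-Tet1 3 (0.0465).

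Replicate numbers are not said to pair the libraries, and same-numbered libraries correlated in their deviations by -0.04 to 0.07. With the replicate number as a block, edgeR called 0 of all genes and 0 factors, and Foxa2 had 0.0115. Onecut1 was left out by a filter on mean FPKM of at least 1. With counts of 8 to 95, the interval of its difference (0.356-fold to 1.99-fold) was the widest of the 9. Scaling by RLE, DESeq2 or library totals shifted the median of all genes by -0.01, -0.01 and 0.05 (log2).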
